A study of Mus musculus with 8 samples.

Results

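Serum carrier proteins move hormones, vitamins, metals and heme through blood, and in the early mouse embryo the visceral endoderm, the epithelium that faces outward in the yolk sac, makes some of them before the liver does. The genes described here are 10 carriers of fetal serum: Afp, Alb, Gc, Ttr, Rbp4, Ambp, Ahsg, Fetub, Hpx and Cp. They were chosen as a gene group, by name, with earlier results of these data known. Every probe set annotated to 1 of them alone was used, bright or dim. Of the 10 genes, 9 had at least 1 probe set, 21 probe sets in all among the 22626 that are not array controls; the array's named probe sets cover 12393 genes. No probe set here was annotated to Gc, the vitamin D binding protein, so Gc has no value.

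The samples were cells taken by laser capture from 8 micron frozen sections of yolk sacs of FVB/N mice at embryonic day 9.5. Erythroid captures held primitive erythroid precursors, the red cell precursors of the yolk sac, and epithelial captures were the study's non-erythroid control. There were 4 of each, in 4 pairs, with both captures of a pair cut from the same slides, 2 to 4 yolk sacs of 2 litters pooled in each replicate, and no treatment or engineered allele named for any group. Each epithelial cell took 1 laser pulse and each erythroid cell 2 to 3 pulses, and the 10 to 39 ng of RNA from a capture were amplified over repeated labelling cycles for 1 Affymetrix mouse expression array per capture.

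The carriers belong to a few protein families. Afp (alpha-fetoprotein), Alb (albumin) and Gc are members of the albumin family, and in the mouse genome Alb and Afp stand next to each other, followed by the albumin-like gene Afm. Ttr (transthyretin) carries thyroid hormone and holds Rbp4, the retinol carrier, in the circulation. Rbp4 and the alpha-1-microglobulin part of Ambp are lipocalins, small proteins with a pocket for greasy ligands, and the rest of Ambp becomes the protease inhibitor bikunin. Ahsg and Fetub are the fetuins, of the cystatin superfamily; Hpx (hemopexin) binds free heme, and Cp (ceruloplasmin) carries copper and oxidises iron. Carriers that are filtered or taken up are bound by the endocytic receptors megalin (Lrp2) and cubilin (Cubn).

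RefSeq promoters (assembly GRCm38.p6) were found for 9 of the 10 genes, all but Ttr. Those of Afp, Rbp4 and Ambp, which have probe sets called below, are shown. That of Alb, the neighbour of Afp, is shown too, although Alb was too dim to be tested. Each line is the 250 bases before the annotated start of the gene, 5′ to 3′ on the strand of the gene. Capitals mark matches, sought on both strands, to TATAAA, the TATA box.
Afp, chr5:90490464-90490713, plus strand: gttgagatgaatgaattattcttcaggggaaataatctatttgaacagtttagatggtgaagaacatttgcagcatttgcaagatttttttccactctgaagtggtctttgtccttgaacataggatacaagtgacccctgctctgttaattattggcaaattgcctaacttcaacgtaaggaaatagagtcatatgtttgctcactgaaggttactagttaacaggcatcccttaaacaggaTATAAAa
Alb, chr5:90460620-90460869, plus strand: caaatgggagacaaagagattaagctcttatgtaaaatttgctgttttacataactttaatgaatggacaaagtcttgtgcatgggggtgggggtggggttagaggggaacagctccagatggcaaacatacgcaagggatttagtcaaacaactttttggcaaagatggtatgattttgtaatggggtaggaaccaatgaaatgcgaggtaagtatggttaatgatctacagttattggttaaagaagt
Rbp4 (start farthest upstream), chr19:38125322-38125571, minus strand: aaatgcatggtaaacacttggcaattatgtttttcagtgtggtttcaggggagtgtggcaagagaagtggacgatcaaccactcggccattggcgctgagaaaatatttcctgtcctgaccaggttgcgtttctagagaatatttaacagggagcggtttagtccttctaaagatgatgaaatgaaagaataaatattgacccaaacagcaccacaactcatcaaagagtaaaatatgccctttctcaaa
Ambp, chr4:63154173-63154422, minus strand: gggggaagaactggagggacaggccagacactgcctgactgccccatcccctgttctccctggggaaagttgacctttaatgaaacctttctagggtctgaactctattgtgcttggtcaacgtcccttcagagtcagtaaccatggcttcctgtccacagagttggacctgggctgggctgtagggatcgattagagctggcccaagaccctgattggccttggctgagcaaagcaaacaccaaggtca
The 9 genes matched had 12 windows, since some have a second annotated start. TATAAA stood in 4 of the 12, 1 each of Afp, Fetub, Rbp4 and Cp, against 12.4% of the 32851 promoter windows of the same length. In Afp it began 7 bases before the start. The windows of Alb, Rbp4 and Ambp printed above did not hold it. In the window of the second Rbp4 start, not printed, it began 28 bases before that start. A match describes these letters only and is not evidence that a factor binds there.

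The carrier genes spanned the range from the brightest probe sets of the array to its background. An array's background was set at the 95th percentile of 117 probe sets for receptors of smell, pheromones and taste, keratin-associated proteins and beta-defensins, genes of other tissues, and lay at deposited signals of 55.1 to 133. Ttr and Rbp4 and 4 of the 5 probe sets of Afp were above it on all 8 arrays, and Ambp on 7, with its erythroid signals of pairs 1 and 2 just above and far under it. Alb, Ahsg, Fetub, Hpx and all 7 probe sets of Cp reached it on at most 2 of 8 arrays. Testing was limited to probe sets at or above the array's median signal on 4 or more of the 8 arrays. That left 9 of the 21 probe sets, from Afp, Ttr, Rbp4 and Ambp. Ambp reached the median on the 4 epithelial arrays and on 2 erythroid ones, so its epithelial values alone would have carried it through the filter, and counts over the tested probe sets describe these 4 genes only.

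**Figure D1:**
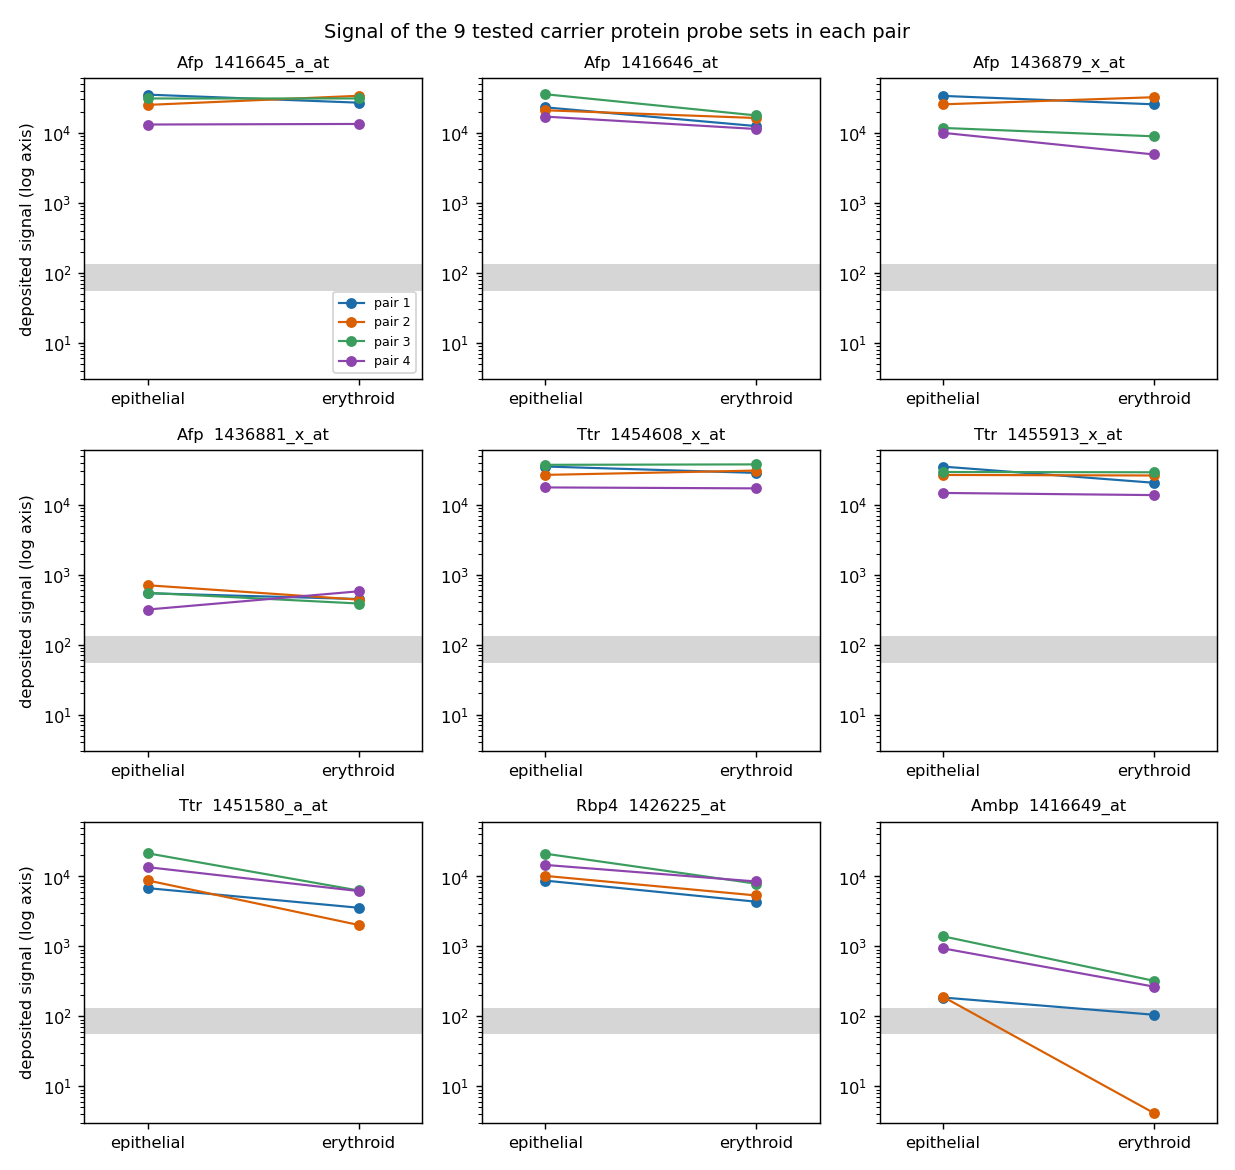
Deposited signal (log axis) of each tested probe set in the epithelial and erythroid capture of each pair, joined by a line; the grey band spans the background of the 8 arrays, 55.1 to 133. All probe sets of Afp, Ttr and Rbp4 drawn here stay above the band in both captures, Rbp4 is lower in the erythroid capture of every pair, and Ambp lies in the band in the erythroid capture of pair 1 and under it in that of pair 2.

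In the comparison of cell types, 5 of the 9 tested probe sets, at least 1 for each of the 4 genes, were lower in the erythroid captures, and 0 were higher. Over all 11449 probe sets tested, 7.69% were called lower and 6.19% higher. Higher calls thus made up 44.6% of all calls, and 29.3% where arrays were centred on their medians. A call is an adjusted p below 0.05 in limma with the pair as a term, adjusted over these 11449 by Benjamini and Hochberg's method. Differences are erythroid minus epithelial, on the log2 scale of deposited signal plus an offset, after quantile normalisation. After this normalisation all 9 differences were below 0, and 8 had that sign in all 4 pairs, as did 18.5% of all tested probe sets. In the deposited signals Afp 1416645_a_at was lower in 1 pair, Ttr 1454608_x_at in 2 and Afp 1436879_x_at in 3. With the deposited scaling Afp 1416645_a_at was at 0.02. The count of carrier probe sets called lower was 1 without the pair term, where 2.49% of all tested probe sets were called lower, and 3 without a variance trend, where 2.96% were. It was 4 of 21 with no filter, where 3.16% of all 22626 were called lower. It was also 4 under the deposited scaling, where 847 of the 11449 were called lower. With arrays centred on their medians or on their 75th percentiles it was 4 too, where 1097 and 865 were called lower. The 4 erythroid values all lay under the 4 epithelial ones for 3 carrier probe sets after normalisation, Afp 1416646_at and Ttr 1454608_x_at and 1455913_x_at, against 7.26% of all tested, and for Rbp4 and Ttr 1451580_a_at in the deposited signals, against 6.48%. RNA was measured per capture, so fewer cells that make a carrier and less of its RNA per cell cannot be told apart.

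Rbp4 had 1 probe set, 1426225_at. Its signals in the erythroid captures of pairs 1 to 4 were 4353, 5350, 7879 and 8476. In the epithelial captures they were 8730, 10192, 21166 and 14623. Every epithelial signal was above every erythroid one. Rbp4 fell by 1.07 ± 0.12 (SE, n = 4 pairs; limma adjusted p = 0.00102), which is 2.11-fold higher signal in the epithelial captures, and the decrease was seen in 4 of 4 pairs. The pairs gave -0.85, -1.04, -1.35 and -1.05. Without the pair term the call ended (adjusted p = 0.125).

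Ambp, the precursor of alpha-1-microglobulin and bikunin, was read from 1 probe set, 1416649_at. Its erythroid signals were 105, 4.14, 322 and 266 in pairs 1 to 4, and its epithelial signals 186, 190, 1395 and 938. Both captures of pairs 3 and 4 were brighter than those of pairs 1 and 2, so the groups overlapped although each erythroid signal was below that of its own pair. The difference was -2.25 ± 0.41 (SE, n = 4 pairs; limma adjusted p = 0.00588), at -1.08, -3.90, -2.19 and -1.83 in the pairs. The erythroid capture of pair 2 was under background, and without that pair Ambp was at -1.73 (adjusted p = 0.00648). Without the pair term the call ended (adjusted p = 0.235), and in pairs 1 and 2 alone it was at -2.39 (adjusted p = 0.102).

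Ttr, the thyroid hormone carrier, gave different sizes on its 3 probe sets. On 1451580_a_at, whose suffix marks probes shared by transcripts of 1 gene, the erythroid signals were 3572, 2026, 6301 and 6186 and the epithelial ones 6814, 8789, 21455 and 13590. All epithelial signals lay above all erythroid ones, as for Rbp4. This probe set fell by 1.50 ± 0.19 (SE, n = 4 pairs; limma adjusted p = 0.00139), in 4 of 4 pairs, and its call ended without the pair term (adjusted p = 0.0927).

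The other probe sets of Ttr carry the suffix x, given where some probes can also match other transcripts. On 1455913_x_at the erythroid signals were 20552, 26127, 29040 and 13701 and the epithelial ones 35014, 26604, 29296 and 14708. Only in pair 1 were the deposited values well apart. After normalisation it fell by 0.40 ± 0.08 (SE, n = 4 pairs; limma adjusted p = 0.0125), a call that ended with the deposited scaling (-0.23, adjusted p = 0.344), with arrays centred on their medians (adjusted p = 0.345) or 75th percentiles (0.429), without the pair term (0.0747), with no filter (0.0801), without a variance trend (0.213) and in pairs 3 and 4 alone (0.0927).

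On 1454608_x_at the signals of Ttr were 28443, 30722, 37645 and 17098 in the erythroid captures and 35111, 26648, 37124 and 17639 in the epithelial ones. The groups covered the same range. The difference was -0.20 ± 0.07 and did not pass (limma adjusted p = 0.0829), with -0.03 under the deposited scaling. This probe set of Ttr ranked between the 10th and the 56th brightest of 22626 on the 8 arrays, and 1455913_x_at between the 25th and the 135th, while 1451580_a_at ranked between the 114th and the 1782nd. Whether the smaller differences come with brightness was not tested.

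Afp, the main carrier of fetal serum, had 5 probe sets. On 1416646_at the erythroid signals were 12492, 16310, 17751 and 11356, and the epithelial ones 23178, 21044, 35667 and 17074. The erythroid capture was the lower one in each pair, and the groups touched only through pair 3 of the erythroid and pair 4 of the epithelial captures. This probe set fell by 0.86 ± 0.09 (SE, n = 4 pairs; limma adjusted p = 0.00102), a 1.81-fold higher epithelial signal. The pairs stood close together, at -0.79, -0.77, -1.04 and -0.82, and of the alternatives run, the call missed the threshold only without a variance trend (adjusted p = 0.0512).

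The Afp probe set with the highest mean signal, 1416645_a_at, showed no such gap. Its signals were 27024, 33879, 31042 and 13415 in the erythroid and 35204, 25113, 31022 and 13163 in the epithelial captures. Pair 1 was lower, pair 2 higher and pairs 3 and 4 nearly level in the erythroid captures. The difference was -0.16 ± 0.09 (limma adjusted p = 0.249) after quantile normalisation and 0.02 with the deposited scaling (adjusted p = 0.946), so its direction turned with the scaling. It ranked between the 25th and the 144th brightest on the 8 arrays, and 1416646_at between the 14th and the 319th.

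Another Afp probe set, 1436879_x_at, differed more between pairs than between cell types. Its erythroid signals were 25582, 32336, 8924 and 4909 and its epithelial signals 33762, 25586, 11763 and 10009. All 4 captures of pairs 1 and 2 were brighter than all 4 of pairs 3 and 4. The difference between cell types was -0.51 ± 0.17 (limma adjusted p = 0.064). It was called without replicate 2 (-0.65, adjusted p = 0.0397), with the stricter filter (adjusted p = 0.0465) and in pairs 3 and 4 alone (-0.79, adjusted p = 4.37e-05), but not in pairs 1 and 2 alone (-0.19, adjusted p = 0.388). With only 2 pairs in a fit, the size of such a p-value says little about spread between pairs.

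Of the last Afp probe sets, 1436881_x_at had signals of 317 to 705 on the 8 arrays and a difference of -0.20 ± 0.26 (limma adjusted p = 0.661). It was lower in the erythroid captures of pairs 1 to 3 and higher in that of pair 4, and was at 0.09 in pairs 3 and 4 alone. The fifth, 1436880_at, lay between 9.15 and 82.7, under background on all 8 arrays. Probe sets of 1 gene read the same RNA and are not replicates: averaged over the tested probe sets, Afp was at -0.43 (adjusted p = 0.0264) and Ttr at -0.70 (adjusted p = 0.00319).

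**Figure D2:**
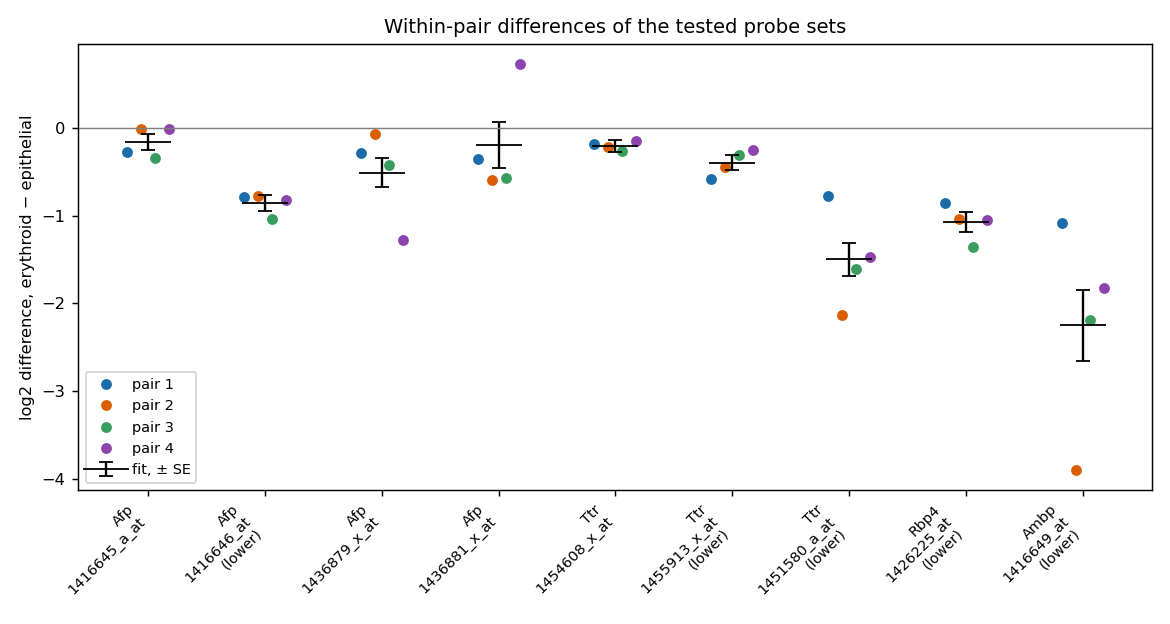
Log2 difference (erythroid minus epithelial, after quantile normalisation) of each tested probe set, with a point for each pair and a bar for the fitted value with its standard error; "lower" marks the 5 probe sets called. The points of Rbp4 and of Afp 1416646_at lie close together well below 0, those of Ambp spread from -1.08 to -3.90, and Afp 1416645_a_at and Ttr 1454608_x_at lie at -0.16 and -0.20.

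**Figure D3:**
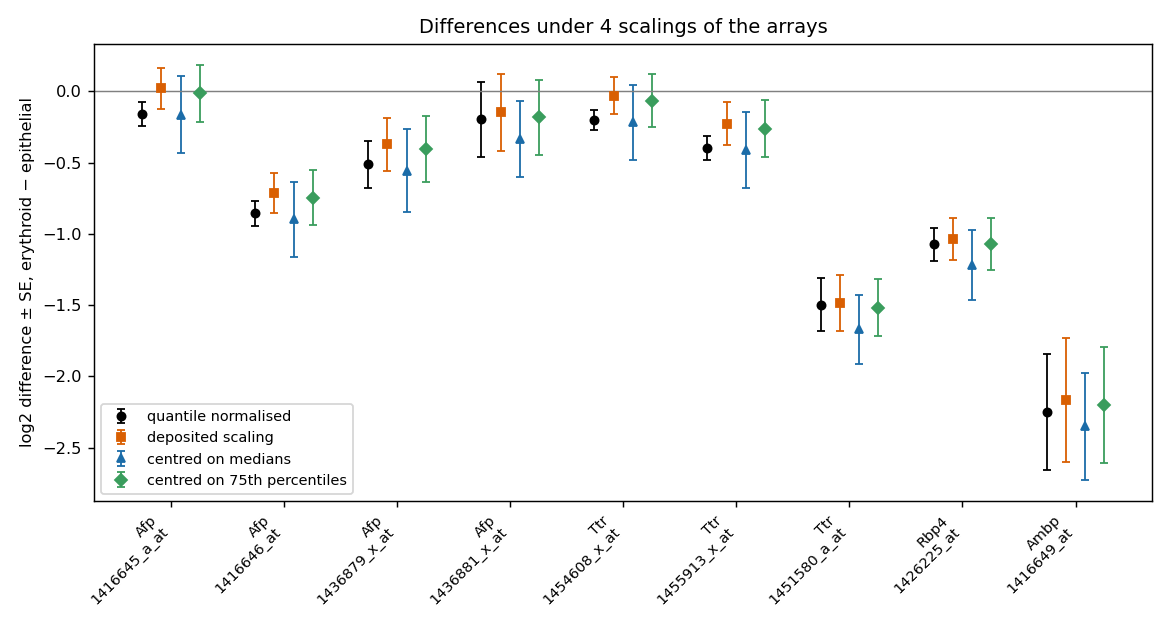
Fitted log2 difference with its standard error for the same 9 probe sets under 4 scalings of the arrays. Rbp4, Ambp, Ttr 1451580_a_at and Afp 1416646_at stay below 0 and are called under all 4, whereas Afp 1416645_a_at moves from -0.16 to 0.02 with the deposited scaling.

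Several of these levels differed between pairs 1 and 2 and pairs 3 and 4, and so did RNA quality. Control probe sets at both ends of Gapdh gave 3′ to 5′ signal ratios, which are higher in shortened RNA, of 38.7 to 44.4 in pairs 1 and 2. In pairs 3 and 4 these ratios were 7.0 to 17.4. For Actb they were 46.5 to 131 in the former and 7.75 to 13.5 in the latter. Afp 1436879_x_at was brighter in pairs 1 and 2. Within each cell type Rbp4 and Ambp, and Ttr 1451580_a_at, were dimmer in pairs 1 and 2 than in pairs 3 and 4. The part of RNA quality in these levels was not tested, and it cannot be told apart from any other difference between these sets of pairs. With these sets of pairs fitted apart, Rbp4 was at -0.99 in the former and -1.15 in the latter, Ttr 1451580_a_at at -1.54 and -1.48, and Afp 1416646_at at -0.80 and -0.89, each called in both fits. Each of these fits held only 2 pairs. Their calls lean on the variance trend over all probe sets and say little about spread between pairs.

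The erythroid captures held signal from endoderm markers as well as from carriers. All 15 markers of visceral endoderm had a tested probe set, 13 of them were called lower in the erythroid captures and 0 higher (median -1.44). The tight junction gene Cldn7 was at -1.85, a call that ended without the pair term (adjusted p = 0.182) and in pairs 1 and 2 alone (0.0949). The adhesion gene Epcam was at -1.84, and its call ended without replicate 4 (adjusted p = 0.0525), without a variance trend (0.0681) and without the pair term (0.0546). Of the markers, 14 to 15 were above background on each erythroid array. Their summed deposited signal was 30991 to 47248 in the erythroid and 66752 to 127036 in the epithelial captures. The erythroid sum was 46.4%, 58.4%, 30.9% and 49.1% of the epithelial one in pairs 1 to 4. For Rbp4 the same percentages were 49.9%, 52.5%, 37.2% and 58.0%. For Afp 1416646_at they were 53.9%, 77.5%, 49.8% and 66.5%, and for Ttr 1451580_a_at 52.4%, 23.1%, 29.4% and 45.5%. For Ambp they were 56.6%, 2.17%, 23.1% and 28.4%. Other bright probe sets lay higher, with Ttr 1455913_x_at at 58.7% to 99.1%, Ttr 1454608_x_at at 81.0% to 115.3% and Afp 1416645_a_at at 76.8% to 134.9%. Afp 1416646_at, with the lower percentages given above, was bright as well, ranking between the 14th and the 319th. Afp 1436879_x_at was at 49.0% to 126.4% and the dimmer 1436881_x_at at 62.3% to 182.2%. The endoderm sum had its highest percentage in pair 2, where Ttr 1451580_a_at and Ambp had their lowest and Afp 1416646_at its highest. The part of endoderm RNA in the carrier signal of the erythroid captures was not tested.

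Of 12 tested red cell markers, 9 were called higher in the erythroid captures and 0 lower. Ermap, an erythroblast membrane protein, and the factor Klf1 were each higher by 2.49 (adjusted p = 0.00339 and 0.00133). The red cell markers' summed signal in the epithelial captures was 52.5% to 83.1% of that in the erythroid ones. The globin genes Hbb-bh1 and Hbb-y, at differences of -0.11 and 0.07, made up 78.0% to 92.3% of that epithelial sum. For the other 11 red cell markers, a split chosen after these values were seen, the epithelial sum was 10.5% to 37.0% of the erythroid one. Of 10 tested mesenchyme markers, 7 were called higher in the erythroid captures and 0 lower (median 1.38). Tagln of smooth muscle was at 1.85, a call that ended without a variance trend (adjusted p = 0.0522) and without replicate 4 (0.0693). Upk3b of mesothelium was at 1.69, with 0.34 in the first set of pairs, 1 and 2, against 3.10 for pairs 3 and 4, and its call ended without replicate 3 (adjusted p = 0.175) or 4 (0.209), with no filter (0.0608), without the pair term (0.102) and without a variance trend (0.140). The mesenchyme sum in the erythroid captures was 114.4%, 152.5%, 455.2% and 478.6% of the epithelial one in pairs 1 to 4. It was 39096 to 56346 in the erythroid and 8416 to 34177 in the epithelial captures, and the part of mesenchyme in the carrier differences was not tested. Of the endothelial markers Tek was at 1.35 (adjusted p = 0.0137) and Esam at 0.88 (adjusted p = 0.194). The call of Tek ended without replicate 3 (adjusted p = 0.0564) or 4 (0.0855), without a variance trend (0.0646) and in pairs 1 and 2 alone (0.174). Of the macrophage markers Laptm5 was at 1.55 (adjusted p = 0.00656, and 0.0667 without the pair term) and Tyrobp at 0.55 (adjusted p = 0.418).

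The dim carriers, Alb, Ahsg, Fetub, Hpx and Cp, were under background on most arrays of both captures. The 12 probe sets that were not tested had signals from 1.72 to 145, and 7 of their 96 values, 7.29%, lay above background, where the definition of background alone gives 5%. Of these values, 3 were erythroid and 4 epithelial. Without the filter their adjusted p ran from 0.339 to 0.993, and a two-sided exact sign-flip test over the 4 pairs gave 0.125 to 1, where 0.125 is the smallest p that 4 pairs allow. On average 6 were lower and 6 higher in the erythroid captures.

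Alb, the main protein of adult serum, had erythroid signals of 99.9, 24.9, 20.3 and 45.2 and epithelial signals of 65.5, 130, 58.2 and 90.5. It exceeded background in the erythroid capture of pair 1 and the epithelial capture of pair 4 only. The groups overlapped.

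Ahsg, an inhibitor of mineral deposition, lay at 3.84 to 86.7 and under background on all arrays. Fetub, its neighbour and relative, lay at 11.2 to 98.3 and passed background in 1 epithelial capture. Hpx lay at 2.18 to 113 and passed it in 1 erythroid capture. Of the 7 Cp probe sets, 5 passed it on no array, and 1417496_at, the brightest, passed it in the erythroid capture of pair 4 (145) and the epithelial capture of pair 2 (139). No difference is given for these genes or for Alb because both groups lay at background. A dim probe set does not show that its gene was silent. Afp 1436880_at was under background on every array although other probe sets of Afp were bright.

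**Figure D4:**
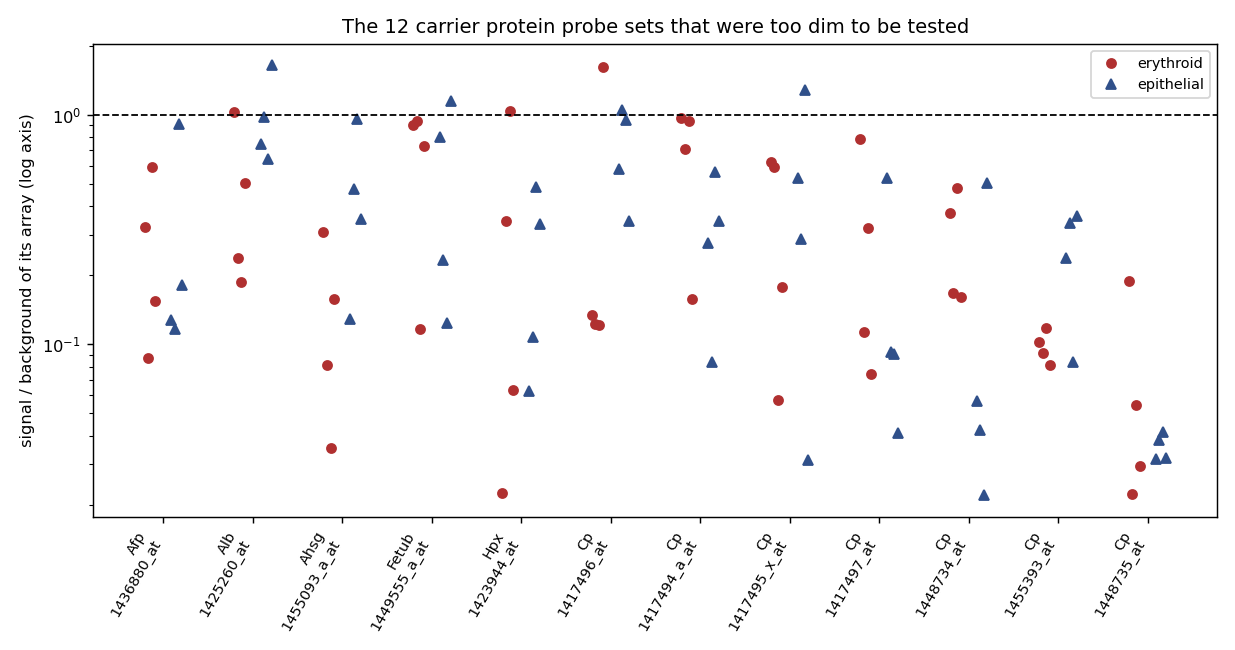
Signal of the 12 untested probe sets divided by the background of the same array (log axis), with 4 erythroid circles and 4 epithelial triangles for each; the dashed line is background. Of 96 values, 7 lie above the line, and no probe set has more than 2 of them.

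Genes for other plasma proteins made by liver and visceral endoderm fell wherever they were called. Of 36 genes listed, 30 had a probe set and 13 were tested, of which 10 fell and 0 rose (median -1.53, against -0.01 over the 7191 genes tested, of which 8.87% were called lower and 6.02% higher). Each gene here stands for its brightest probe set by mean among those tested. The plasmin inhibitor Serpinf2 fell by 2.23 ± 0.38 (SE, n = 4 pairs; limma adjusted p = 0.00427), with -1.35 in the fit of pairs 1 and 2 alone against -3.01 for pairs 3 and 4, and its call ended without a variance trend (adjusted p = 0.0523). Fgb, a chain of fibrinogen, fell by 2.01 ± 0.27. The probe set of Serpina1b, an inhibitor of elastase with near-identical neighbouring copies that it may also read, fell by 2.13 ± 0.27. The complement inhibitor Serping1 was at 0.39 (adjusted p = 0.717), and its direction turned without replicate 4 and in pairs 1 and 2 alone. Read in the same way, 2 of the 4 tested carriers fell, Rbp4 and Ambp. Among the genes with a probe set that were not tested were Afm, the neighbour of Afp, which was above background in 3 of 4 epithelial captures and 0 erythroid ones, and the haptoglobin gene Hp, above it on no array.

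Genes that take up carriers or handle their ligands also fell wherever they were called. Of 23 listed, 10 were tested, 6 were called lower and 0 higher, with a median of -1.28. Of the 10, 3 were above 0 without a call. Amn, which anchors cubilin in the membrane, fell by 1.50 ± 0.24, Lrp2 fell by 1.44 ± 0.26 and Cubn fell by 1.35 ± 0.14, each in 4 of 4 pairs (limma adjusted p = 0.00347, 0.00549 and 0.00102). The call of Amn ended without the pair term (adjusted p = 0.134). Dab2 was called lower too, at -1.33 ± 0.13 (limma adjusted p = 0.00102). These 3 and Dab2 also stand in the list of endoderm markers, so the 2 lists are not separate. Lrp1, the receptor for heme bound to hemopexin, was at -0.17 (adjusted p = 0.762), and at 0.02 without replicate 1. Stra6, the receptor for Rbp4, was above background on 1 of 8 arrays and was not tested.

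Transcription regulators of liver and endoderm genes were called lower in 4 of 11 tested cases and higher in 0, with a median of -1.13 over those 11 of 20 listed. Of the 11, 3 were above 0 without a call. Hnf4a fell by 1.61 ± 0.35 (limma adjusted p = 0.013), Foxa3 fell by 1.61 ± 0.26 and Foxa2 fell by 1.59 ± 0.27. The call of Hnf4a ended without replicate 4 (adjusted p = 0.0538), without the pair term (0.0699) and without a variance trend (0.0819), and the count of regulators that fell was then 2, 1 and 2. The call of Foxa2 ended without the pair term (adjusted p = 0.0546). Zfhx3, a repressor of Afp, was at 0.07 (adjusted p = 0.906), and its direction turned without replicate 2 or 4 and in pairs 3 and 4 alone.

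**Figure D5:**
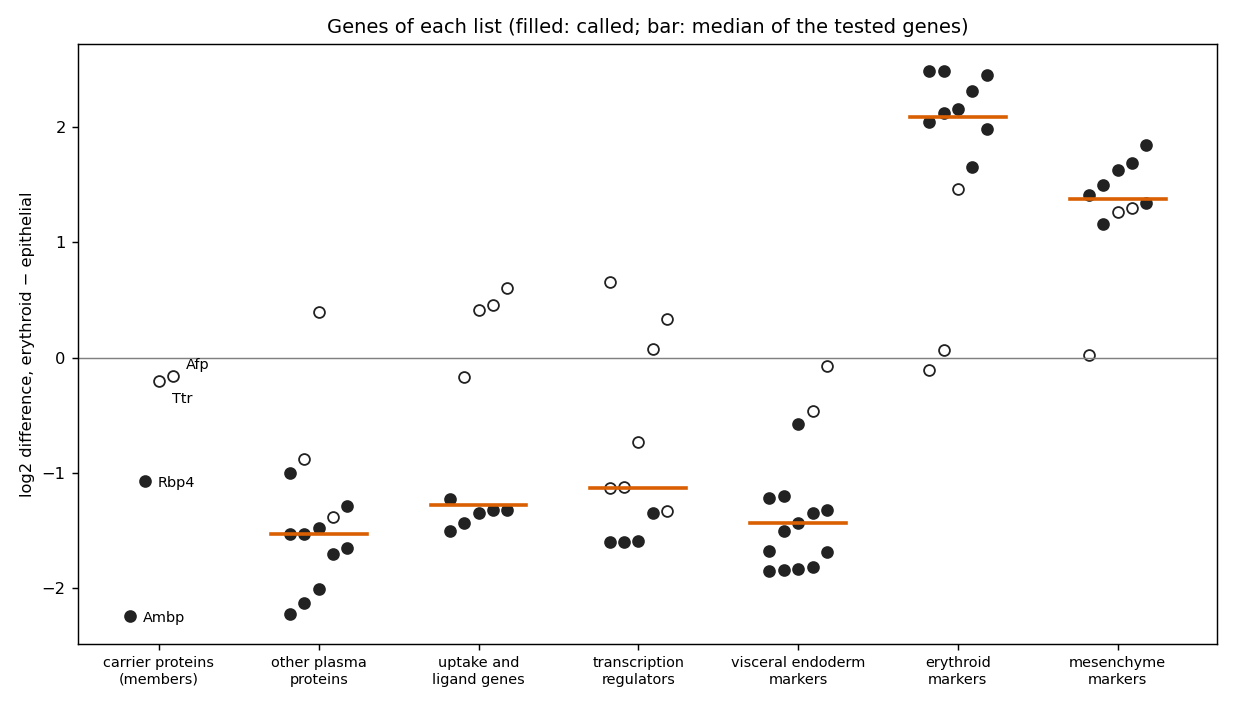
Log2 difference (erythroid minus epithelial) of each tested gene in 7 lists, filled where called and open where not, with a bar at the median of each list except the carriers. Rbp4 lies among the other plasma proteins and Ambp just below the lowest of them, while Afp and Ttr, read from their brightest probe sets, lie near 0.

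The genes closest to each carrier were sought among 7110 tested genes outside the lists, by the root mean square distance of the 4 within-pair differences. For Rbp4 these were Rnf181 (0.11) and Tmem51 (0.12), and for Ambp Cyba (0.56) and Rdh12 (0.68), all on the log2 scale. For the brightest probe sets they were Ckap2 (0.05) and Pomt2 (0.07) for Afp and Cybc1 (0.05) and Wdr77 (0.06) for Ttr. A small distance says only that the differences were alike in these 4 pairs.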

How the data were processed

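The authors deposited 1 intensity (MAS5 signal, linear) per probe set and array; software named in the submitters' processing notes was MAS5, GCOS and affy, with versions not given in the sources used here. The mean after trimming 2% at each end was 500.0 on every array. Array medians ranged from 81.6 to 127. Of 22626 probe sets, 20380 were annotated to 1 gene, and only these were named; symbols were updated for 20351. An offset of 8.14, the 10th percentile of the deposited intensities, was added before log2. Array medians then spanned 0.59, above the limit of 0.5, so arrays were quantile normalised. limma 3.58.1 in R 4.3.3 was fitted with pair and cell type (variance trend, 3 residual degrees of freedom) and was tested on simulated data. Tests were two-sided.

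Pairing comes from the labels' protocols. Deviations of paired samples from their group means correlated at 0.44, 0.34, 0.31 and 0.54 over 11449 probe sets. Correlations between captures of different pairs were not computed, and RNA quality differed between pairs in both captures, so these values do not test the pairing. The number of arrays limits the precision. Fold changes on the log2 scale understate changes of dim genes. Members and lists were chosen with earlier results of these data known. Named genes were the members, the 3 called genes with the largest change in each direction and the 1 with the smallest change in each list of context genes, the 2 marker genes with the largest change, and the 2 nearest genes by distance. Afm, Hp, Stra6 and Dab2 were named after their values were seen. Endothelial markers gave 1 call higher and 0 lower of 6 tested, and macrophage markers 1 and 0 of 4. Alternatives were other scalings, offsets, filters, no pair term, no variance trend, each pair left out, the pairs split by RNA quality, and other readings of a gene's probe sets.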

Additional observations from a re-analysis of the deposited data

Results flagged for a closer look

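In 42 groups of 4 values, 1 for each carrier probe set and cell type, 6 had a value set apart from the other 3 by Dixon's criterion on the normalised scale, and chance gives about 1 group in 20. Afp 1416645_a_at was lowest in the epithelial capture of pair 4 (13162.67; 14.16 on the normalised log2 scale against 14.73 to 14.80 in the others). Ttr 1454608_x_at was highest in the epithelial capture of pair 3 (37123.84; 14.99 against 14.79 to 14.81). The other 4 were dim: Afp 1436880_at in the epithelial capture of pair 3 (82.7), Cp 1417496_at in the erythroid capture of pair 4 (145, above background, against 12.9 to 13.1), Cp 1417494_a_at in the erythroid capture of pair 4 (14.2) and Cp 1448734_at in the epithelial capture of pair 4 (27.9).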

How the results depend on the processing

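Without the pair term (no replicate block), 445 probe sets were called, 160 higher and 285 lower, in place of 1590, 709 and 881; of the carriers 1 probe set was called lower, Afp 1416646_at, in place of 5, and of the regulators 1 gene in place of 4. Without a variance trend these counts were 518, 179 and 339, with 3 for the carriers and 2 for the regulators. Pairs 1 and 2 alone gave 1024 calls, 544 of them lower, and pairs 3 and 4 alone gave 2824, of which 1379 were higher and 1445 lower. Counts from fits of 2 pairs lean on the variance trend and say little about spread between pairs. Centring on medians gave 455 higher and moved the median of all differences from 0.02 to -0.11. Leaving out 1 pair gave 556 to 1536 calls, 214 to 717 higher and 342 to 844 lower, with 779 without replicate 3 and 556 without replicate 4; carrier calls were 5 to 6 and regulator calls 2 to 5. Directions turned for Afp 1416645_a_at (0.0197, deposited scaling), Afp 1436881_x_at (0.0853, pairs 3 and 4), Lrp1 (0.0201 without replicate 1, the highest of its 4 such fits, which began at -0.39), Zfhx3 (-0.09 without replicate 2 and -0.10 without replicate 4, and up to 0.38 with another pair left out; -0.13 in pairs 3 and 4) and Serping1 (-0.30 without replicate 4, up to 0.83 with another pair left out, -0.81 in pairs 1 and 2). Over the refits of the 9 tested carrier probe sets, 117 values kept direction and side of the threshold, 12 lost a call, 3 gained one and 2 turned. For the other named genes 290 kept both, 24 lost a call and 6 turned. The causes were not tested. Probe sets without a suffix gave no value for Ttr, and Ambp was not tested under the stricter filter.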
